A study of Mus musculus with 2 samples.

Results

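Basal interfollicular keratinocytes are the cells of the lowest layer of the epidermis between the hair follicles, and here they were taken from 2 single-cell RNA libraries of regenerated mouse skin. The cells were chosen by their own unique molecular identifier (UMI) counts, where 1 UMI stands for 1 captured RNA molecule. A cell was kept with at least 2000 UMIs, at most 15% mitochondrial UMIs, at least 30 UMIs of Krt5 and Krt14 together and more of these than of Krt1 and Krt10. It also needed at least 2 UMIs of Trp63 and Col17a1 together, fewer than 3 of Krt79, at most 2 of Mki67 and Top2a, none of Ptprc and fewer than 20 of Col1a1 and Col1a2. Cells with at least 3 Krt15 UMIs and at least 1 Sox9 UMI were left out as follicle cells. These conditions kept 330 of 26551 deposited cells, 68 of 12800 in WT_LW and 262 of 13751 in TLR9agonist_LW.

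Both libraries came from wild-type male C57BL/6J mice 6 to 8 weeks old with a circular wound 1.8 cm across on the back. WT_LW wounds were given PBS and TLR9agonist_LW wounds the Toll-like receptor 9 agonist ODN2395, an oligodeoxynucleotide with CpG motifs, at 4 μg a treatment on days 0, 3 and 6. A 5 mm disc of the wound centre was collected 2 days after the scab came off, epidermis and dermis were separated with enzymes, and the cells were recombined without the dead ones. The sources used here differ on the number of mice per group (6 or 5), on the control (PBS or a control oligonucleotide) and on whether the agent was sprayed, dropped or injected. Cells of all mice of a group were pooled in 1 library, so no test between the groups was possible, and treatment, mice and preparation cannot be told apart. All intervals below are 95% intervals that cover counting error only.

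Basal keratinocytes rest on the basement membrane, to which hemidesmosomes fix them through α6β4 integrin, plectin, dystonin and collagen XVII, and they hold keratins 5 and 14. They divide to renew the epidermis, and cells that leave the layer lose these contacts and switch to keratins 1 and 10 and then to cornified envelope proteins. In a wound, keratinocytes migrate over the new bed, take up keratins 6, 16 and 17 and make antimicrobial proteins and chemokines.

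The gate cells held 1263786 UMIs in WT_LW and 5498517 in TLR9agonist_LW, with medians of 18551 and 20700 UMIs and of 3914 and 3466 genes per cell. Of the cells that passed the depth and mitochondrial filter, the gate took 0.702% (0.545 to 0.889) in WT_LW and 2.27% (2.01 to 2.56) in TLR9agonist_LW, exact Clopper-Pearson intervals. The share was higher in TLR9agonist_LW by 1.69 on the log2 scale, and by 1.04 when the Krt79, Krt15 and Sox9 conditions were left out, which let in 133 and 325 cells. How enzymes and pooling set these shares was not tested. The 2 libraries shared 47 barcodes among all cells and 0 among the gate cells. Cells marked by a doublet score were kept, and they were 8 cells (11.8%) of the WT_LW gate and 9 cells (3.44%) of the TLR9agonist_LW gate.

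The genes of the gate describe the cells and were not tested. Summed over the gate cells, Krt14 was at 16625 CPM (the UMIs of the gene scaled by all UMIs of the gate) in WT_LW and 13034 in TLR9agonist_LW, and Krt5 at 6921 and 3294. Trp63, the transcription factor of the basal state, was at 366 and 179 CPM, and Col17a1, the hemidesmosomal collagen, at 1059 and 336. The gate's own rule set a least sum of Krt5 and Krt14 and of Trp63 and Col17a1, so their presence in both libraries is no result. Krt5, Trp63 and Col17a1 were at a lower level in TLR9agonist_LW, among cells chosen by these thresholds. Krt1 was at 2224 and 2108 CPM and Krt10 at 669 and 966, so the gate also held cells that had begun to express suprabasal keratins. Krt15, a keratin of slow-cycling basal and follicle cells, was at 849 CPM in WT_LW and 81.1 in TLR9agonist_LW, and the top 10% of WT_LW cells held 63.3% of its UMIs there. Cells with at least 3 Krt15 UMIs were left out only where Sox9 was found too. A Sox9 UMI was in 17 of 68 WT_LW and 150 of 262 TLR9agonist_LW gate cells, so the Krt15 difference depends on the gate's own rule.

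Cells near the thresholds were not spread alike. A sum of Trp63 and Col17a1 of exactly 2 was found in 3 cells inside the WT_LW gate and 36 inside the TLR9agonist_LW gate, and a sum of 1 kept out 6 and 33 cells. Krt5 and Krt14 were only 1 to 2 times Krt1 and Krt10 in 6 and 31 gate cells, 15 and 50 cells fell outside at 0.5 to 1 times, and 54 and 163 gate cells were at 10 times or more. Krt5 and Krt14 of 30 to 39 UMIs were seen in 3 and 3 cells inside, and of 20 to 29 in 1 and 4 cells outside. The TLR9agonist_LW gate thus held relatively more cells at its suprabasal edge, and values from a stricter gate with at least 5 UMIs of Trp63 and Col17a1 (58 and 178 cells) stand beside the main results where it ended a 2-fold call, as do values without the follicle conditions.

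Genes of other cells were present at low levels in the gate. The summed level of 12 immune markers was 514 CPM in WT_LW and 230 in TLR9agonist_LW, of 8 fibroblast markers 883 and 914, of 6 endothelial markers 26.1 and 34.4, of 4 pericyte markers 77.5 and 30.2, of 4 Schwann cell markers 51.4 and 46.9, and of 5 sebocyte markers 167 and 122. The melanocyte genes Mlana and Tyrp1 and the Merkel cell genes Krt8, Krt20 and Atoh1 were at 0 in both gates. The part of free RNA or mixed droplets in these levels was not tested.

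Each gene was then compared between the libraries as the log2 ratio of its CPM in TLR9agonist_LW to that in WT_LW, with 0.5 UMI added to each sum. The median of 7351 genes with at least 50 UMIs lay at -0.37 and all log2 differences below are relative to that median gene. Of these genes, 518 (7.05%) were at least 2-fold higher in TLR9agonist_LW and 371 (5.05%) at least 2-fold lower. Without that centring, 273 (3.71%) were higher and 1010 (13.7%) lower. The interquartile range over all genes was -0.38 to 0.39.

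**Figure D1:**
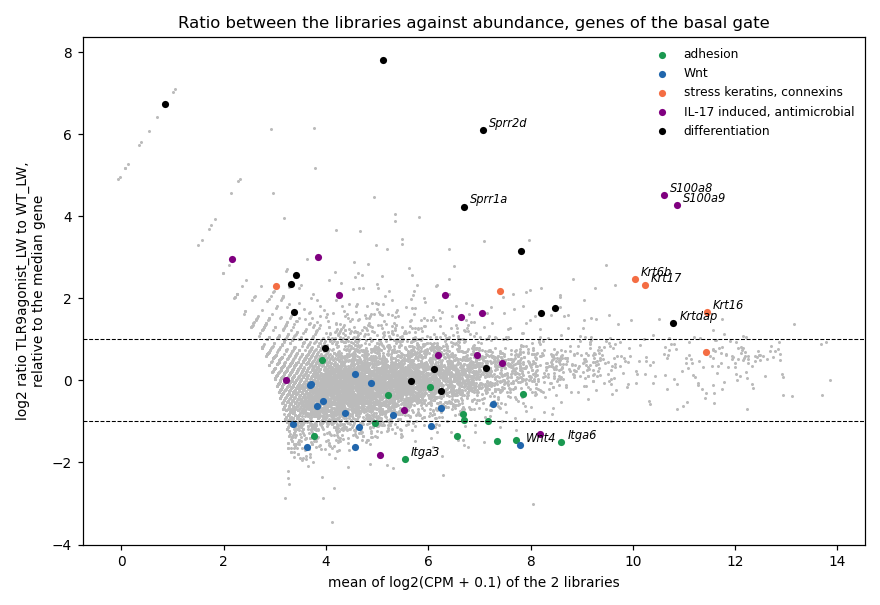
Log2 ratio of TLR9agonist_LW to WT_LW relative to the median gene (vertical axis) against the mean log2 CPM of both libraries in the basal gate (horizontal axis), 1 point a gene, with named genes labelled and lines at 2-fold. Most of the 7351 genes lie between the lines, S100a8 and S100a9 lie far above them at high abundance, and Itga6, Wnt4 and Itga3 lie below.

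Genes that hold basal keratinocytes to the basement membrane were lower in TLR9agonist_LW as a group. Of 14 counted members of the hemidesmosome and basement membrane list, 0 were at least 2-fold higher and 7 at least 2-fold lower, against 7.05% and 5.05% of all genes, and the median member was at -1.02. Col17a1 was not in this list, since it chose the cells. The median was -0.71 under the stricter gate and -0.70 without the follicle conditions. The same shares of all genes are the background of each list count that follows.

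Itga6, the α6 chain of the hemidesmosomal integrin, was at 741 CPM in WT_LW and 202 in TLR9agonist_LW, a difference of -1.50 (-1.63 to -1.38). Its partner Itgb4 was at 154 and 67.3 CPM, a difference of -0.82 (-1.07 to -0.56), within 2-fold. Itga3, the laminin-binding α3 chain, was at 103 and 20.9 CPM and had the lowest value of the list at -1.93 (-2.30 to -1.55). The laminin-binding α chains were thus further below the median gene than the β chains, and Itgb1, which pairs with α3, was at 297 and 182 CPM (-0.34). The plakin linkers followed the α chains, with Dst (dystonin) at 396 and 112 CPM (-1.46) and Plec (plectin) at 311 and 85.7 CPM (-1.49).

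Genes of the basement membrane were lower too, to differing degrees. Lamb3, a chain of laminin-332, was at 170 and 51.7 CPM (-1.35), while Lama3, another chain, was at 78.3 and 54.2 CPM (-0.16). Col7a1, the collagen of anchoring fibrils, was at 231 and 89.8 CPM (-0.99). Fermt1, which activates integrins, was at 50.6 and 19.1 CPM (-1.04). Itga2, a collagen-binding integrin chain, was the single counted member above the median gene, at 14.2 and 16.0 CPM (0.51). Within 2-fold under the stricter gate were Lamb3 at -0.94 and Fermt1 at -0.71, while Itga6 was at -1.22, Itga3 at -1.55, Dst at -1.19 and Plec at -1.25. Without the follicle conditions Plec was at -0.95, Lamb3 at -0.80 and Fermt1 at -0.38, within 2-fold.

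Wnt pathway genes were also lower. Of 16 counted ligands, receptors and targets, 0 were at least 2-fold higher, 6 were at least 2-fold lower, and the median was -0.73. The median was -0.52 under the stricter gate, -0.41 without the follicle conditions and -1.10 without centring. Wnt4, a ligand made by basal keratinocytes, was at 434 CPM in WT_LW and 113 in TLR9agonist_LW, a difference of -1.57 (-1.74 to -1.40). Wnt10a was at 110 and 39.6 CPM (-1.10), the receptors Fzd10 and Fzd6 at 24.5 and 6.18 CPM (-1.62) and at 41.9 and 14.9 CPM (-1.12), and the secreted inhibitor Sfrp1 at 47.5 and 11.8 CPM (-1.63). Ligands, receptors and an inhibitor of the pathway thus all lay on the same side. Ctnnb1, which encodes β-catenin, was at 214 and 111 CPM (-0.57), and Tcf7l2 was the only counted member above the median gene (0.15). Beside Wnt, the Notch ligand Jag2 was at 30.9 and 9.46 CPM (-1.34), the single one of 8 counted Notch genes past 2-fold. Within 2-fold were Wnt10a at -0.73 under the stricter gate, and without the follicle conditions Wnt10a at -0.46, Fzd10 at -0.97, Fzd6 at -0.98 and Jag2 at -0.71.

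Some transcription factors of the epidermis were higher in TLR9agonist_LW. Of 15 counted members, 5 were at least 2-fold higher and 1 at least 2-fold lower. Among the higher ones were factors that drive keratinocytes out of the basal state and toward barrier formation. Grhl3 was at 11.9 and 67.3 CPM (2.83, 2.13 to 3.73), Cebpa at 32.4 and 86.6 CPM (1.77), Zfp750 at 76.8 and 139 CPM (1.22) and Ovol1 at 113 and 181 CPM (1.05). Grhl2, the grainyhead factor of simple and layered epithelia, was the lower one at 38.0 and 12.9 CPM (-1.19). Other factors of differentiating and basal cells were within 2-fold, such as Klf4 at 490 and 661 CPM (0.80), Klf5 at 189 and 265 CPM (0.86) and Tfap2a at 93.4 and 117 CPM (0.70). Ovol1 was at 0.77 under the stricter gate and Cebpa at 0.72 without the follicle conditions.

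Among junction genes, 3 of the tight junction were higher. Of 17 counted junction genes, 3 were at least 2-fold higher and 0 lower, and the 3 were the tight junction genes Cldn1 at 31.7 and 228 CPM (3.20, 2.77 to 3.71), Cldn4 at 11.9 and 140 CPM (3.89, 3.20 to 4.78) and Ocln at 3.17 and 13.5 CPM (2.30, 1.04 to 4.37). Ocln rested on 4 UMIs in WT_LW. Tjp1, a scaffold of the tight junction, was within 2-fold at 26.9 and 35.6 CPM (0.76). Among desmosomal genes, the linker Dsp was at 1117 and 818 CPM (-0.08) and Perp at 1525 and 1724 CPM (0.55).

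Differentiation genes were higher in TLR9agonist_LW as a group. Of 16 counted members of the differentiation and cornified envelope list, 11 were at least 2-fold higher and 0 lower, with a median of 1.72. The summed level was 2178 and 6433 CPM. Krtdap, an early differentiation marker, was at 1239 and 2522 CPM (1.40), Sbsn at 191 and 458 CPM (1.63) and Lypd3 at 220 and 576 CPM (1.76). The genes of cornified envelope precursors differed more: Sprr1a was at 26.9 and 398 CPM (4.24, 3.77 to 4.79), Sprr1b at 85.5 and 588 CPM (3.15, 2.88 to 3.45) and Sprr2d at 18.2 and 992 CPM (6.11, 5.55 to 6.80). Sprr2f had 3 UMIs in WT_LW and 2631 in TLR9agonist_LW (7.80, 6.48 to 10.31). Reads of the Sprr2 genes can be split among near-identical copies, so values of single Sprr2 members are uncertain.

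Several late envelope genes had few UMIs. Loricrin (Lor) had 3 and 23 UMIs, involucrin (Ivl) 1 and 39, and filaggrin (Flg) 0 and 3, too few to be counted. Of the plakins of the envelope, Evpl was at 57.8 and 44.7 CPM, level with the median gene, and Ppl at 94.2 and 60.9 CPM (-0.26). Cnfn had 0 UMIs in WT_LW and 179 in TLR9agonist_LW, 68.2% of them in 1 cell. With it at its bound the list median was 1.76. Under the stricter gate Krtdap was at 0.78 and Sbsn at 0.91, both within 2-fold, while Sprr1a was at 3.55 and Sprr2d at 5.41.

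Keratins and connexins of the wounded epidermis were higher too. Of 6 counted members, 5 were at least 2-fold higher, with a median of 2.23, and the median was 1.31 under the stricter gate and 1.54 without the follicle conditions. Krt6b was at 507 and 2164 CPM (2.46), Krt16 at 1780 and 4370 CPM (1.67) and Krt17 at 610 and 2361 CPM (2.32). Krt6a, whose sequence is close to that of Krt6b, was at 2485 and 3096 CPM (0.69). The connexin Gjb2 was at 90.2 and 316 CPM (2.17) and Gjb6 at 3.96 and 16.4 CPM (2.29, and 0.43 without the follicle conditions). Under the stricter gate Krt6b was at 1.34, Krt16 at 0.95 and Krt17 at 1.77.

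The antimicrobial genes S100a8 and S100a9 were far higher in TLR9agonist_LW and were among its abundant transcripts. S100a8 was at 369 CPM in WT_LW and 6548 in TLR9agonist_LW (4.52, 4.39 to 4.65) and S100a9 at 480 and 7200 CPM (4.28, 4.16 to 4.40). Their products join as calprotectin, which binds zinc and manganese away from microbes. S100a8 was at 3.65 under the stricter gate. Neutrophils carry both RNAs, and free RNA was present: in endothelial cells, which should lack it, S100a8 was at 18.0 and 436 CPM.

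The promoters of 5 genes that were far higher in TLR9agonist_LW and of Wnt4, which was lower, are given here to let their letters be compared, as the 250 bases before the start of transcription in RefSeq on GRCm38.p6, read 5′ to 3′ along the gene. Capitals mark matches, on either strand, to an AP-1 site (TGANTCA), a C/EBP site (TTGCNNAA) or a TATA box (TATAAA), and no 2 matches overlap. The windows are chr3:90668821-90669070 (plus strand) for S100a8, chr3:90695722-90695971 (minus) for S100a9, chr3:92485882-92486131 (minus) for Sprr1a, chr3:92338890-92339139 (plus) for Sprr2d, chr9:7272264-7272513 (plus) for Mmp13 and chr4:137277385-137277634 (plus) for Wnt4.
S100a8: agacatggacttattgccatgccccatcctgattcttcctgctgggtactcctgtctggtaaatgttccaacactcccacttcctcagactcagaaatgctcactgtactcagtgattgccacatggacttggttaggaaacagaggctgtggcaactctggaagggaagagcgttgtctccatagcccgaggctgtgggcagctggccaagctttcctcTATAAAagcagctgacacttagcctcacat
S100a9: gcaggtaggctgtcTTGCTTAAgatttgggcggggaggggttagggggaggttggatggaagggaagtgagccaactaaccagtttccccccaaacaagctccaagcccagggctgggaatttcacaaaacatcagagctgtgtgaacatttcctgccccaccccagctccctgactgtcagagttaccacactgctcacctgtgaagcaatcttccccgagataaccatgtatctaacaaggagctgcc
Sprr1a: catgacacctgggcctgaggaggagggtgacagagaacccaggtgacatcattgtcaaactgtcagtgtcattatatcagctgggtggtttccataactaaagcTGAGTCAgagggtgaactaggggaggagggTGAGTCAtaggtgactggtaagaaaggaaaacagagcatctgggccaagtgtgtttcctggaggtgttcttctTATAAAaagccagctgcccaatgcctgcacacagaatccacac
Sprr2d: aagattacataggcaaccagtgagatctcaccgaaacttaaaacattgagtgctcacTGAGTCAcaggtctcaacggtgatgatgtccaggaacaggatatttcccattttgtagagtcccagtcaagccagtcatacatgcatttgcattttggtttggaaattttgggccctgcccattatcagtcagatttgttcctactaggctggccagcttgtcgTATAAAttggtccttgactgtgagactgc
Mmp13: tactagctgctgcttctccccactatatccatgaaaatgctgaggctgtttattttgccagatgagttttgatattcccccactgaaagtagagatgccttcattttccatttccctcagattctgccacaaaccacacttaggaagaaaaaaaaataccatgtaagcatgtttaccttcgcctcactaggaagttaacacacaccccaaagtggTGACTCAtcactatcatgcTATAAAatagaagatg
Wnt4: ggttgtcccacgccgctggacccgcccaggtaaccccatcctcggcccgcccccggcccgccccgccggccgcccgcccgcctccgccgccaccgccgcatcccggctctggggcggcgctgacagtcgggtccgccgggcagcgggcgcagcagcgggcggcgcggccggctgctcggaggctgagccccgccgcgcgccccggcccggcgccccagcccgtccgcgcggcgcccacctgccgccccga
Sprr1a held an AP-1 match at 146 to 140 and another at 116 to 110 bases before the start, Sprr2d one at 193 to 187 and Mmp13 one at 35 to 29. S100a9 held a C/EBP match at 236 to 229 bases, and TATA matches lay in S100a8, Sprr1a, Sprr2d and Mmp13. The Wnt4 window held none of these. Among 32851 promoter windows of the same length, 6.75% held the AP-1 match, 9.56% the C/EBP match and 12.4% the TATA match. A match describes the letters and not a bound site.

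Other genes of the interleukin 17 (IL-17) induced and antimicrobial list were higher only in part. Its members Nfkbiz, Zc3h12a, Cxcl1, Il19 and Tnip3 were within 2-fold. In WT_LW 1 cell held 47.9% of the Cxcl1 UMIs, and Cxcl1 was at 1.41, past 2-fold, without the top cell of each library. The others of these members stayed within 2-fold without those cells. Of 15 counted members of the IL-17 and antimicrobial list, S100a8 and S100a9 included, 8 were at least 2-fold higher and 2 lower, with a median of 1.54, and of 0.76 without the follicle conditions and 1.05 in the stricter gate. Ccl20, the ligand of CCR6, was at 44.3 and 146 CPM (2.08). The β-defensin Defb1 was at 66.5 and 150 CPM (1.54) and the protease inhibitor Slpi at 85.5 and 206 CPM (1.63). Defb6 was at 5.54 and 36.6 CPM (3.00) and turned to -0.81 without the follicle conditions. Csf3 rested on 2 UMIs in WT_LW, and was at 28.8 and 766 CPM in endothelial cells, above its 1.58 and 11.8 CPM in the basal gate.

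The lower members of this list rested on a single WT_LW cell. Cxcl2, a neutrophil chemokine, was at 521 and 164 CPM (-1.30), Cxcl3 at 70.4 and 15.5 CPM (-1.82) and Il1b, in the interleukin 1 list, at 101 and 28.4 CPM (-1.47). The same cell, 1 of 68, held 60.9% of the Cxcl2 UMIs, 87.6% of the Cxcl3 UMIs and 79.7% of the Il1b UMIs of the WT_LW gate. It was also the top cell for the macrophage gene Lyz2, with 30.5% of its UMIs. Without the top cell of each library the values were -0.18, 0.81 and 0.65. With cells of high doublet score removed they were 1.57, 1.63 and 0.62.

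Interleukin 1 family and chemokine genes were mixed. Il33, an alarmin stored in the nucleus, was at 131 and 448 CPM (2.15, 1.92 to 2.39) and Il1rn, the secreted receptor antagonist, at 77.5 and 154 CPM (1.35). Il1r2, the decoy receptor, was at 49.1 and 13.8 CPM (-1.46, and -0.65 without the follicle conditions), and Il20rb, a receptor chain for the interleukin 20 family, at 39.6 and 8.18 CPM (-1.90). Of 9 counted chemokines 3 were at least 2-fold higher and 0 lower. Cxcl16 was at 62.5 and 180 CPM (1.89). Ccl2 was at 36.4 and 139 CPM (2.29) and Cxcl9 at 0.791 and 21.8 CPM on 1 UMI in WT_LW, but endothelial cells held more of both, at 93.0 and 1141 CPM of Ccl2 and 64.8 and 191 CPM of Cxcl9.

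Tlr9, the receptor of the agonist, had 0 UMIs in both gates. At a limit of 3 counts this allows up to 4.41% of cells with a UMI in WT_LW and 1.15% in TLR9agonist_LW, which limits cells with a UMI and not cells that express the gene. Its adaptor Myd88 was at 20.6 and 19.8 CPM (0.30). Genes of the NF-kB pathway and its feedback were higher in 6 of 13 counted members and lower in 0, among them Rela at 55.4 and 90.02 CPM (1.06), Rel at 61.7 and 104 CPM (1.12) and Icam1 at 35.6 and 62.4 CPM (1.17), with the inhibitor Nfkbia at 673 and 907 CPM (0.80). Without the follicle conditions Rela was at 0.89 and Rel at 0.99. The list median was 0.95, and 0.58 without centring, where Rela, Rel and Icam1 were within 2-fold. Type I interferon response genes were within 2-fold in 10 of 10 counted members, with a median of 0.07, as were 13 of 13 MHC class I genes, with a median of -0.01. The interferon list has 26 members, and most had too few UMIs to be counted, among them Ifit1, Ifit2, Ifit3, Irf7, Mx1 and Rsad2. Their response was therefore not measured here.

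**Figure D2:**
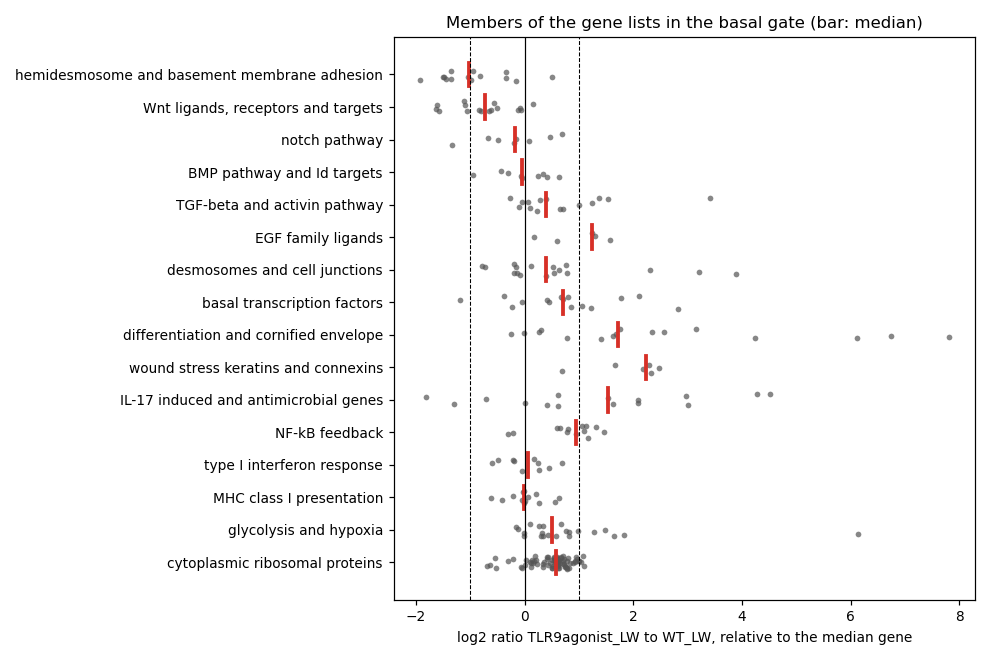
Log2 ratio of TLR9agonist_LW to WT_LW relative to the median gene for each counted member of 16 gene lists, 1 point a gene, with the list median as a bar and lines at 2-fold. Adhesion and Wnt members lie mostly below 0, stress keratin, differentiation and IL-17 members mostly above, and interferon and MHC class I members around 0.

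Growth factor genes were higher for several ligands. Of 5 counted EGF family ligands 3 were at least 2-fold higher, Ereg at 19.0 and 44.4 CPM (1.57), Tgfa at 21.4 and 41.3 CPM (1.30) and Epgn at 139 and 255 CPM (1.24). Areg was at 357 and 418 CPM (0.60) and Hbegf at 221 and 193 CPM (0.17), and the receptor Egfr was at 41.9 and 64.6 CPM (0.98). In the TGF-β and activin list 5 of 15 counted members were at least 2-fold higher and 0 lower. Fst, which encodes the activin antagonist follistatin, was at 47.5 CPM in WT_LW and 393 in TLR9agonist_LW (3.41, 3.05 to 3.82). The activin chain Inhba was at 19.0 and 43.1 CPM (1.53), and 87.5% of its 24 WT_LW UMIs came from the same cell as most of the Cxcl2.

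Migration genes went both ways, with 4 of 18 counted members at least 2-fold higher and 4 at least 2-fold lower. Mmp13, a collagenase of wound-edge keratinocytes, was at 15.8 and 199 CPM (3.99, 3.39 to 4.74), the urokinase receptor Plaur at 26.9 and 61.1 CPM (1.54), urokinase (Plau) at 19.0 and 37.1 CPM (1.31) and Itgb6, a fibronectin-binding chain, at 12.7 and 26.4 CPM (1.39). Among the lower ones, Snai2, a factor of migrating cells, was at 47.5 and 14.4 CPM (-1.36) and Mmp14 at 62.5 and 22.9 CPM (-1.08). Mmp14 was at -0.73 under the stricter gate and -0.60 without the follicle conditions. The lower Fn1 (-1.21) rested on this cell too and was -0.04 without the top cell of each library.

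The gate left out cells with more than 2 UMIs of Mki67 and Top2a, so cycling was not compared. Within it, the G1 cyclins Ccnd1 and Ccnd2 were at 135 and 34.0 CPM (-1.62) and at 175 and 62.9 CPM (-1.10), and the cyclin kinase inhibitor Cdkn1a at 169 and 346 CPM (1.40). Ccnd2 was at -0.90 under the stricter gate, and without the follicle conditions Ccnd1 was at -0.83 and Cdkn1a at 0.89. Among stress genes the heat shock genes Hspa1a and Hspa1b, close copies of each other, were at 222 and 944 CPM (2.46) and at 320 and 1175 CPM (2.25). Endothelial cells showed the same, at 727 and 4549 CPM of Hspa1a, and their part in the values of the gate was not tested. Of 22 counted glycolysis and hypoxia genes 5 were at least 2-fold higher, among them Hk2 at 69.6 and 192 CPM (1.83), and Adm had 1 UMI in WT_LW and 354 in TLR9agonist_LW.

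Among genes with at least 200 UMIs in all and at least 10 in each library, which leaves out Sprr2f and Adm, the 12 highest ratios were those of Sprr2d, S100a8, S100a9, Sprr1a, Sprr2h, Mmp13, Cldn4, Stx11, Asprv1, Ccdc71l, Fst and Prr9. Asprv1, a protease of the granular layer, was at 15.03 and 131 CPM (3.46), and all 20 Prr9 UMIs of WT_LW came from 1 cell. The 12 lowest were Fam213a, Hoxa7, Itga3, Ahnak2, Kcnq1ot1, Ccnd1, Wnt4, S100a4, Tns4, Itga6, Plec and Il1b. Fam213a, a peroxiredoxin-like gene, was at 197 and 30.9 CPM (-2.30) and Hoxa7, a homeobox gene, at 94.95 and 16.5 CPM (-2.15). Adhesion genes thus made up 3 of the lowest 12, and Tns4, which encodes an integrin-linked tensin, was at 263 and 71.3 CPM (-1.51).

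**Figure D3:**
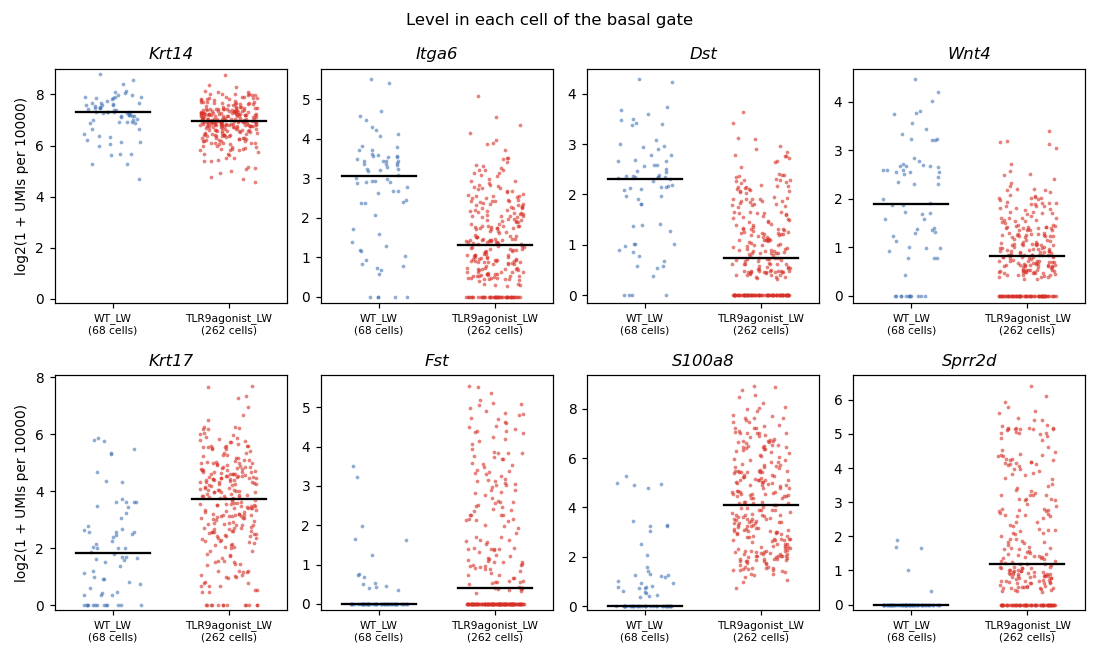
Log2 of UMIs per 10000 plus 1 in each gate cell for 8 genes in WT_LW (68 cells) and TLR9agonist_LW (262 cells), 1 point a cell, with the median as a bar. Krt14 overlaps widely, Itga6, Dst and Wnt4 have the higher median in WT_LW, and S100a8 is above 0 in every TLR9agonist_LW cell.

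The cells varied widely within each library. Krt14 ran from 25.01 through a median of 157 to 444 UMIs per 10000 in WT_LW and from 22.6 through 123 to 435 in TLR9agonist_LW. Itga6 ran from 0 through 7.26 to 44.2 and from 0 through 1.49 to 32.9. S100a8 ran from 0 through 0 to 37.8 and from 0.680 through 16.1 to 481. The libraries overlapped in each of these genes, with TLR9agonist_LW cells reaching far higher in S100a8. Krt17 ran from 0 through 2.59 to 57.0 and from 0 through 12.3 to 203, and Fst from 0 through 0 to 10.3 and from 0 through 0.332 to 45.4.

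Depth was then equalised by thinning each cell to 2000 UMIs, which leaves free RNA in place, so shares in endothelial cells are given as its background. A Wnt4 UMI remained in 47.1% of WT_LW and 19.1% of TLR9agonist_LW gate cells, against 0.938% and 1.29% of endothelial cells, whose median depths were 6727 and 8366 UMIs. A Cldn1 UMI was found in 2.94% and 32.8% of gate cells and in 0.563% and 1.80% of endothelial cells, and an Fst UMI in 5.88% and 29.4% against 1.13% and 1.29%. In TLR9agonist_LW these shares were above the endothelial background. In WT_LW the exact intervals of gate and endothelial cells overlapped for Cldn1 (0.358 to 10.2% and 0.116 to 1.64%) and for Fst (1.63 to 14.4% and 0.414 to 2.43%). For S100a8 the shares were 17.6% and 80.5% in the gate and 4.88% and 61.2% in endothelial cells, and 48.5% and 100% against 13.9% and 97.2% before thinning. Cells with an S100a8 UMI in TLR9agonist_LW therefore cannot be counted as expressing cells, while the CPM was higher in the gate than in endothelial cells in both libraries. Sprr2d was found in 0 of 68 thinned WT_LW cells (7.35% before thinning) and in 38.9% of TLR9agonist_LW cells (75.2% before thinning). In endothelial cells it was found in 0.563% and 16.7% after thinning and in 2.06% and 53.2% before. An Areg UMI remained in 20.6% (11.7 to 32.1) of WT_LW and 39.3% (33.4 to 45.5) of TLR9agonist_LW gate cells. Before thinning these Areg shares were 36.8% and 75.2%. In endothelial cells Areg was found in 0.75% and 9.0% after thinning.

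Sums over 3 gene groups, put together after their values had been seen, showed how the genes varied together from cell to cell. The sum of 10 adhesion genes had a median of 25.6 UMIs per 10000 in WT_LW and 7.70 in TLR9agonist_LW, and 25 of 262 TLR9agonist_LW cells (9.54%) were above the median cell of WT_LW. The sum of S100a8 and S100a9 had medians of 0.685 and 33.5, and 262 of 262 cells were above the median cell of WT_LW. That median is near 0, and free S100a8 reached 97.2% of TLR9agonist_LW endothelial cells before thinning, so the count is no count of expressing cells. The sum of the stress keratins had medians of 30.7 and 56.4, and 196 of 262 cells (74.8%) were above the median cell of WT_LW. Within each library, cells with more adhesion RNA had less S100a8 and S100a9, with Pearson's r of -0.44 over 68 cells and -0.63 over 262 cells on the log scale. Stress keratins and the S100 sum went together, with r of 0.61 and 0.73. The adhesion sum went against the sum of Krt1 and Krt10 as well, with r of -0.56 and -0.61. These are descriptions across cells that share a library, and the adhesion sum also went with the UMIs per cell, at r of -0.22 and -0.43.

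**Figure D4:**
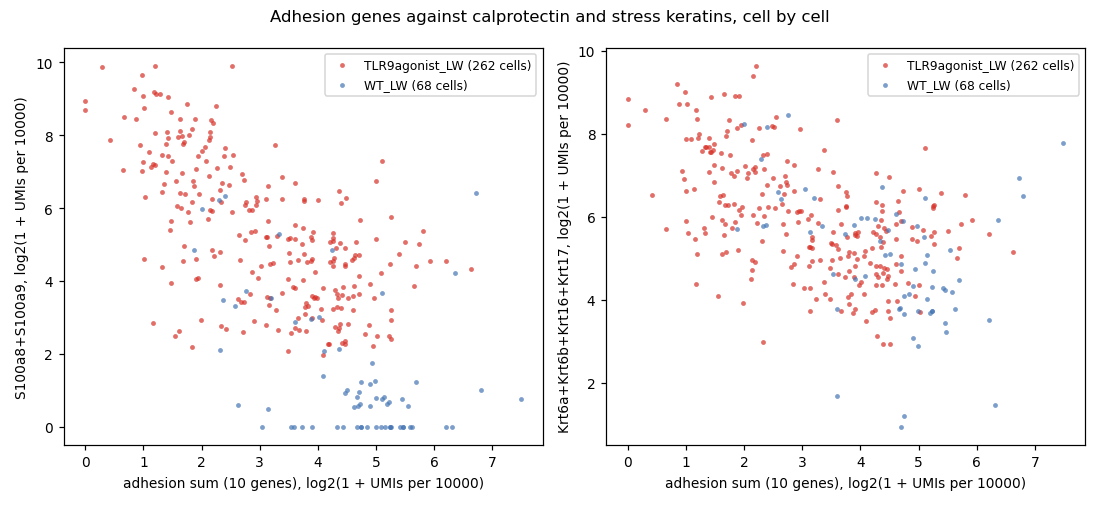
Sum of S100a8 and S100a9 (left) and of the stress keratins (right) against the sum of 10 adhesion genes per gate cell, as log2 of UMIs per 10000 plus 1, 1 point a cell, coloured by library. In both libraries cells with a higher adhesion sum have lower sums on the vertical axes, and TLR9agonist_LW cells lie higher on the left.

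The basal gate was set against a suprabasal gate of cells with at least 30 UMIs of Krt1 and Krt10 and no more of Krt5 and Krt14 than of these (144 and 396 cells). Of 5868 genes, 260 were at least 2-fold higher and 174 at least 2-fold lower in the basal gate in both libraries. The log2 ratio of basal to suprabasal CPM was 4.94 and 5.89 for Itgb4, 6.80 and 3.93 for Itga3, 4.72 and 4.40 for Lamb3, and 4.87 and 3.95 for Mmp13. The cytokine genes Il19 and Il24 were on the basal side by 5.05 and 3.92 and by 5.74 and 3.06. Some of these ratios rest on few suprabasal UMIs of WT_LW, 1 each of Mmp13 and Il24, 2 of Itga3 and 5 of Il19. The lowest were late genes such as Flg, Slurp1 and Rptn. The median of the adhesion list was 3.30 and 2.72, of the differentiation list -3.32 and -1.59, and of the stress keratin list -1.84 and -0.26. Differentiation and stress keratin genes thus stood closer between these gates in TLR9agonist_LW, whose basal gate held relatively more cells at its suprabasal edge. The part of those edge cells in this difference was not tested.

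Between the libraries the suprabasal cells differed in part alike and in part not. In them the IL-17 list had a median of 2.29, above the 1.54 of the basal gate. The differentiation list was at 0.02 over 21 counted members, 6 of them at least 2-fold higher and 3 lower, against 1.72 over 16 in the basal gate. Among the lower were Lor at 619 and 2.63 CPM (-7.46) and Flg at 971 and 28.5 CPM (-4.69). The stress keratins were at 0.62 against 2.23, the adhesion list at -0.58 against -1.02 and the Wnt list at -0.28 against -0.73. S100a8 was at 2484 and 9275 CPM in suprabasal cells, Sprr1a at 291 and 2415 and Krtdap at 6196 and 5734. Areg was at 174 and 529 CPM (1.99) in suprabasal cells. With 1 library a group these differences between the gates were not tested.

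**Figure D5:**
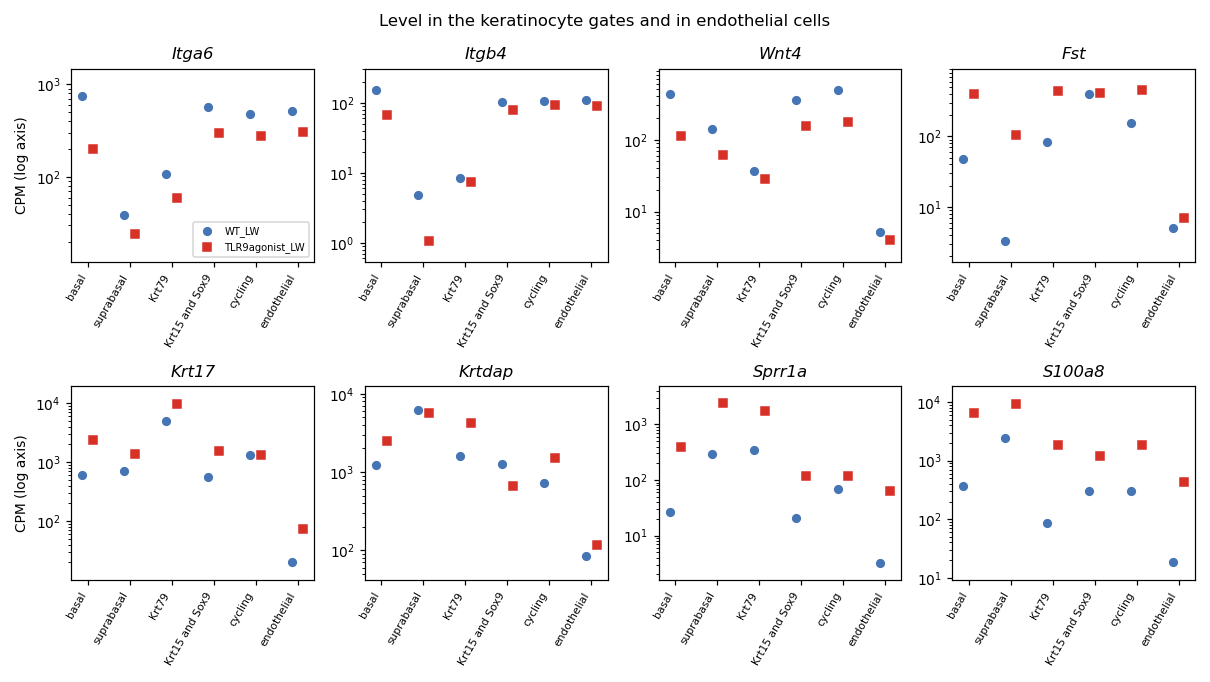
CPM of 8 genes on a log axis in 6 gates of each library (basal, suprabasal, Krt79, Krt15 and Sox9, cycling and endothelial), 1 point a gate and library, circles for WT_LW and squares for TLR9agonist_LW. S100a8 is higher in TLR9agonist_LW in all 6 gates, and Itga6 is low in the suprabasal gate of both libraries.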

How the data were processed

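Single-cell RNA was measured in 2 libraries, WT_LW and TLR9agonist_LW. The deposited matrices hold unnormalised UMI counts of 27998 genes in each called cell, which the authors made with Cell Ranger 4.0.0 per the file headers. The submitters' processing notes also name fastp, Seurat and the build mm9, and whether v2 or v3 chemistry was used is not given in the sources used here. No position was taken from the files, and promoters come from RefSeq on GRCm38.p6.

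Deposited cells held 99374045 UMIs in WT_LW and 132339022 in TLR9agonist_LW, and 9691 and 11541 cells passed the filter. Gate cells of a library were summed into 1 profile in CPM. A ratio carries the exact interval that follows from a binomial split of the gene's total. A difference of at least 2-fold was counted, without a test. Doublets were scored with Scrublet, whose automatic threshold marked under 0.01% of cells, so the top 10% of scores was used for the alternative without doublets. Named genes were members of 38 lists, the 12 highest and 12 lowest ratios, the abundant genes and the 8 genes at each end against the suprabasal gate. The members and lists were chosen with earlier results of these data known, and the endothelial, immune and fibroblast gates were set after the files had been seen. Ratios were tested on simulated data. R 4.3.3 with edgeR 4.0.16 and DESeq2 1.42.0 gave scaling factors alone, and all else ran in Python 3.11.15 with scanpy 1.11.5, scipy 1.17.1, numpy 2.4.6, pandas 2.3.3 and matplotlib 3.10.9. Certain genes are not reported here.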

Additional observations from a re-analysis of the deposited data

Results flagged for a closer look

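With all gate cells kept, Cxcl2 lay on opposite sides in the 2 epidermal layers. It was lower in TLR9agonist_LW by -1.30 relative to the median gene in the basal gate and higher by 1.43 in the suprabasal gate. It was the only one of 3163 genes with at least 200 UMIs in each gate that was past 2-fold in opposite directions. With 1 library a group the difference was not tested. In the basal gate of WT_LW 1 of 68 cells held 60.9% of the Cxcl2 UMIs, and the basal value was -0.18 without the top cell of each library. With cells of high doublet score removed, Cxcl2 was at least 2-fold higher in the basal gate too, and the opposite directions were gone. Cxcl2 was at 3039 CPM in immune cells of WT_LW and 5854 in those of TLR9agonist_LW.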

How the results depend on the processing

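No paired analysis was possible because each group had 1 library. Of 130 named genes past 2-fold, 127 kept their direction with high-scoring doublets removed and 129 without the follicle conditions, and 130 did under each other setting run with them all counted. Past 2-fold stayed 96 without the follicle conditions, 105 without centring, 112 to 117 in the 3 stricter gates, 118 without doublets and 121 or more in the others. With doublets removed Cxcl2 was at 1.57, Cxcl3 at 1.63 and Il1b at 0.62, where 1 cell had held most WT_LW UMIs. Without the follicle conditions Defb6 was at -0.81, and the cause was not tested. The log2 ratio of the gate's share was 1.04 without the follicle conditions and 1.30 with at least 2 UMIs of Trp63 and Col17a1 per 10000. Higher genes numbered 273 without centring, 1017 with at least 10 UMIs per gene and 214 with at least 200. Lower genes numbered 1010, 997 and 90 in these settings, 228 with Trp63 and Col17a1 at least 5 and 235 at 2 per 10000. The stress keratin median was 1.54 without the follicle conditions, 1.74 with equal weight per cell, 1.31 at 5 or more and 1.46 at 2 per 10000. The IL-17 median was 0.76, 1.05 and 1.05 under the follicle and both stricter gates and 1.17 without centring. Without centring the adhesion median was -1.39 and the differentiation median 1.35. The 3 stricter gates were chosen after the data had been seen. With 68 cells in WT_LW, genes with few UMIs were limited by depth, and no replicate could be left out.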

Other observations

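Several gene groups lay nearer the median gene. Of 78 counted cytoplasmic ribosomal protein genes, 3 were at least 2-fold higher and 0 lower, with a median of 0.58. Glutathione and oxidative stress genes were at least 2-fold higher in 2 of 19, near the 7.05% of all genes, Gsta4, a glutathione transferase, at 38.8 CPM in WT_LW and 211 in TLR9agonist_LW (2.80, 2.40 to 3.26) and the metallothionein Mt1 at 983 and 2158 CPM (1.51). AP-1 and immediate early genes were at least 2-fold higher in 4 of 21, with Hspa1a and Hspa1b among them, while Fos was at 1211 and 473 CPM (-0.98). Of 20 counted replication and cell cycle entry genes 3 were higher and 2 lower. The BMP list had 0 of 9 past 2-fold in either direction, the MHC class II list 0 of 6, and the mitochondrially encoded genes 0 of 13.

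The abundant transcripts of the gate showed differences of their own. Fabp5, a fatty acid carrier of keratinocytes, was at 6434 CPM in WT_LW and 12811 in TLR9agonist_LW (1.37, and 0.41 with at least 5 UMIs of Trp63 and Col17a1), and Lgals7, an epithelial galectin, at 11564 and 17032 CPM (0.93). The cystatin A-like genes Stfa3 and BC100530, near-identical copies whose reads can be split, were at 11473 and 6859 CPM (-0.37) and at 10950 and 15636 CPM (0.89). Among 11 counted hair follicle regulators 1 was at least 2-fold higher and 0 lower, Plet1, a surface protein of the upper follicle and of wound keratinocytes, which was at 213 and 559 CPM (1.76).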
